A study of Mus musculus with 2 samples.

Results

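The genes described here are the mouse matrix metalloproteases (Mmp), their tissue inhibitors (Timp), the ADAMTS proteases and the ADAMTS-like proteins, followed across cell compartments of the uterus at gestational day 3.5. The rule takes them by symbol: every symbol of the deposited feature tables that begins with Mmp, Timp, Adamts or Adamtsl followed by a digit, leaving out symbols that end in os. This gave 50 of 32285 features, made up of 22 Mmp, 4 Timp, 19 Adamts and 5 Adamtsl genes. The rule itself reads no measured value.

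Matrix metalloproteases are zinc-dependent endopeptidases that are mostly made as inactive proenzymes and that cut collagens, proteoglycans, basement membrane proteins and cell surface proteins. TIMPs bind and block the active enzymes, and TIMP3 also blocks several ADAMTS and ADAM proteases and stays bound to the matrix. ADAMTS proteases are secreted, carry thrombospondin-type repeats and cut large proteoglycans, procollagens or other matrix proteins, while ADAMTS-like proteins share the repeats and lack the protease domain. In the pregnant mouse uterus these families are known for the remodelling of the stromal matrix around implantation.

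The uterus labelled KO had the genotype Pgrcre/+Mig-6f/f and the uterus it was set against, labelled Control, had the genotype Mig-6f/f, with 1 library of single cells each. Both carried floxed Mig-6 alleles, so they differed by Cre driven from the progesterone receptor gene, which directs deletion to cells that express that receptor. Effects of Cre at Pgr and of Mig-6 loss cannot be told apart in these 2 libraries. Tissue was dissociated with trypsin, blood cells were depleted, and transcripts were counted with 10x droplets as unique molecular identifiers (UMIs).

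The library labelled KO held 23317904 UMIs over 3118 barcodes, and the Control library 44871170 UMIs over 4627 barcodes, with 3 barcode sequences in both. Filters kept 2877 barcodes of the library labelled KO (median 4889 UMIs) and 4297 of the Control library (median 9179 UMIs). Stromal barcodes were those with at least 10 UMIs of Dcn, Col1a2 and Col3a1 together per 10000 UMIs. Epithelial barcodes were those with at least 10 UMIs of Epcam, Krt8, Krt18 and Cldn7 together, and barcodes that met both rules were kept apart. The stroma had 1048 barcodes (36.4% of those kept) and 3935529 UMIs in the library labelled KO, against 3216 barcodes (74.8%) and 29473634 UMIs in the Control library. The epithelium had 1416 barcodes (49.2%) and 17338371 UMIs in the library labelled KO, against 722 barcodes (16.8%) and 10619297 UMIs in the Control library. A marker sum near the limit, between 5 and 20, was found in 193 KO and 535 Control stromal barcodes and in 49 KO and 25 Control epithelial barcodes.

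Genes that the rules did not use were high in the compartment they mark and low in the other. Lum, Pdgfra, Hand2 and Col6a3 summed to 902 CPM in stroma and 12.3 CPM in epithelium of the library labelled KO, and to 606 CPM in stroma and 4.80 CPM in epithelium of the Control library. Cdh1, Krt19, Krt7, Cldn4, Wfdc2 and Lcn2 summed to 13952 CPM in KO-labelled epithelium and 87.4 CPM in KO-labelled stroma, and to 7633 CPM in Control epithelium and 13.1 CPM in Control stroma. Errfi1, the gene of Mig-6, was 732 CPM in stroma of the library labelled KO and 197 CPM in Control stroma, a ratio of 3.72 (3.55 to 3.89). In epithelium it was 513 CPM in the library labelled KO and 575 CPM in the Control library, a ratio of 0.892 (0.863 to 0.922). The stromal value goes against the label, so groups are called by their labels only. The labels do not say which exons the floxed alleles remove, and tags that fall outside the deleted stretch check nothing. CPM is the UMI sum of a gene per 1000000 UMIs of that compartment and library. Intervals are 95% and cover counting error only: exact Poisson for a level, exact conditional for a ratio, which is always the library labelled KO over the Control library. With 1 library per group there is no replicate and no test, so every difference given is one between 2 single libraries.

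The 5 sequences shown next are promoters of members named in the results: 4 proteases from the Mmp gene cluster on chromosome 9, and the inhibitor Timp3 for contrast. Of the proteases, Mmp7 (matrilysin), Mmp10 (stromelysin-2) and Mmp13 (collagenase-3) were called higher in KO-labelled epithelium, Mmp10 and Mmp13 on few UMIs. Mmp3 (stromelysin-1) was confined to low stromal counts. Each sequence is the 250 bases before a RefSeq start on the + strand of GRCm38.p6. The sequences lie at chr9:7691840-7692089 for Mmp7, chr9:7502092-7502341 for Mmp10, chr9:7272264-7272513 for Mmp13, chr9:7445572-7445821 for Mmp3 and chr10:86300162-86300411 for Timp3. Capitals mark matches on either strand to the AP-1 motif (TGANTCA), the TATA box (TATAAA) or the GC box (GGGCGG).
Mmp7: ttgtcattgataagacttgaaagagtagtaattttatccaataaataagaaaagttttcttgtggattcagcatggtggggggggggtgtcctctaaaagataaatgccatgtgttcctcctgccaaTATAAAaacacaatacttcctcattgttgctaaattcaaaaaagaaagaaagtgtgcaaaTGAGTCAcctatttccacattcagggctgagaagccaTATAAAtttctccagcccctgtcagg
Mmp10: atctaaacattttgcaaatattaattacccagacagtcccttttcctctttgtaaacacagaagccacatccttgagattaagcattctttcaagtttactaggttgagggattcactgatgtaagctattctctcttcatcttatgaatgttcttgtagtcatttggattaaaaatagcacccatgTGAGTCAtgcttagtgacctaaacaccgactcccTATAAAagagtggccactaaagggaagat
Mmp13: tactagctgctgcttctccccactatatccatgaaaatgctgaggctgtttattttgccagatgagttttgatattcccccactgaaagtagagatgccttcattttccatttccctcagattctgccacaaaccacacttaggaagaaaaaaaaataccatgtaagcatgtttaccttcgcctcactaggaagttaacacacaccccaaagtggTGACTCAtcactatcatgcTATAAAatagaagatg
Mmp3: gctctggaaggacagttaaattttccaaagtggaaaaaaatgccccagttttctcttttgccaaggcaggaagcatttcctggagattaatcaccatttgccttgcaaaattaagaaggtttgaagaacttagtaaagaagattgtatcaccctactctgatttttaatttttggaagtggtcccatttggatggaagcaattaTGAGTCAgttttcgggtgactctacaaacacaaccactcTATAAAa
Timp3: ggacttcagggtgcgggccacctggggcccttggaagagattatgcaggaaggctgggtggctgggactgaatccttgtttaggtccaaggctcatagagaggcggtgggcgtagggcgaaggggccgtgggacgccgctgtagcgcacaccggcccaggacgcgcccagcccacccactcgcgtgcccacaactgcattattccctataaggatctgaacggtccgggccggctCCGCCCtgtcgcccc

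In windows of 300 bases, from 250 before the start to 50 after it, the AP-1 motif occurred in 7.81% of 32851 RefSeq mouse promoters, the TATA box in 13.6% and the GC box in 35.7%. AP-1 and TATA matches occurred together in 1.54%. A window was found for 35 members and none was used for Adamts4, Adamts5, Adamts6, Adamts7, Adamts8, Adamts10, Adamts15, Adamts16, Adamts19, Adamtsl1, Mmp2, Mmp9, Mmp16, Mmp17 and Mmp19. Of the 9 members in the chromosome 9 cluster (Mmp13, Mmp12, Mmp1b, Mmp3, Mmp10, Mmp8, Mmp27, Mmp20 and Mmp7), 7 held the AP-1 motif in any of their windows, 8 the TATA box and 0 the GC box. Of the other 26 members with a window, 0 held the AP-1 motif, 3 the TATA box and 22 the GC box. The clustered genes are related copies that lie side by side, so these matches are not independent, and a match is not evidence of binding. Counted from the start as +1, the AP-1 match began at -63 in the printed Mmp7 window and in Mmp10, at -46 in Mmp3 and at -35 in Mmp13. Another Mmp7 window, at a later RefSeq start, held none of these motifs.

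Of the 50 members, 36 had at least 20 UMIs over both libraries in stroma and 14 had fewer. In epithelium 21 reached that minimum and 29 did not. A member was called when its level differed at least 2-fold. In stroma 6 members were called higher in the library labelled KO: Mmp11, Mmp19, Timp3, Adamts2, Adamts4 and Adamtsl2. Over all 14460 stromal features with 20 UMIs, 5.47% were called higher. Lower calls in stroma numbered 3 (Adamts9, Adamts20 and Mmp27), where 11.7% of all features were lower, and 27 members lay within 2-fold. The median log2 ratio was 0.02 over the 36 members and -0.05 over all features, which are close to each other.

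In epithelium 4 of the 21 measured members were called higher in the library labelled KO: Mmp7, Mmp10, Mmp13 and Mmp23. Over 13335 epithelial features 5.11% were called higher. A further 8 members were called lower (Adamts1, Adamts2, Adamts17, Adamtsl4, Mmp2, Timp2, Timp3 and Timp4), where 15.0% of all features were lower, and 9 lay within 2-fold. The median log2 ratio was 0.02 over the members and -0.18 over all features. All 4 members called higher were Mmp genes, and 3 of the 4 Timp genes were called lower. Among these, Mmp10, Mmp13 and Timp4 rest on few UMIs. Timp2 and Timp3 each fell within 2-fold under an alternative given below.

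**Figure D1:**
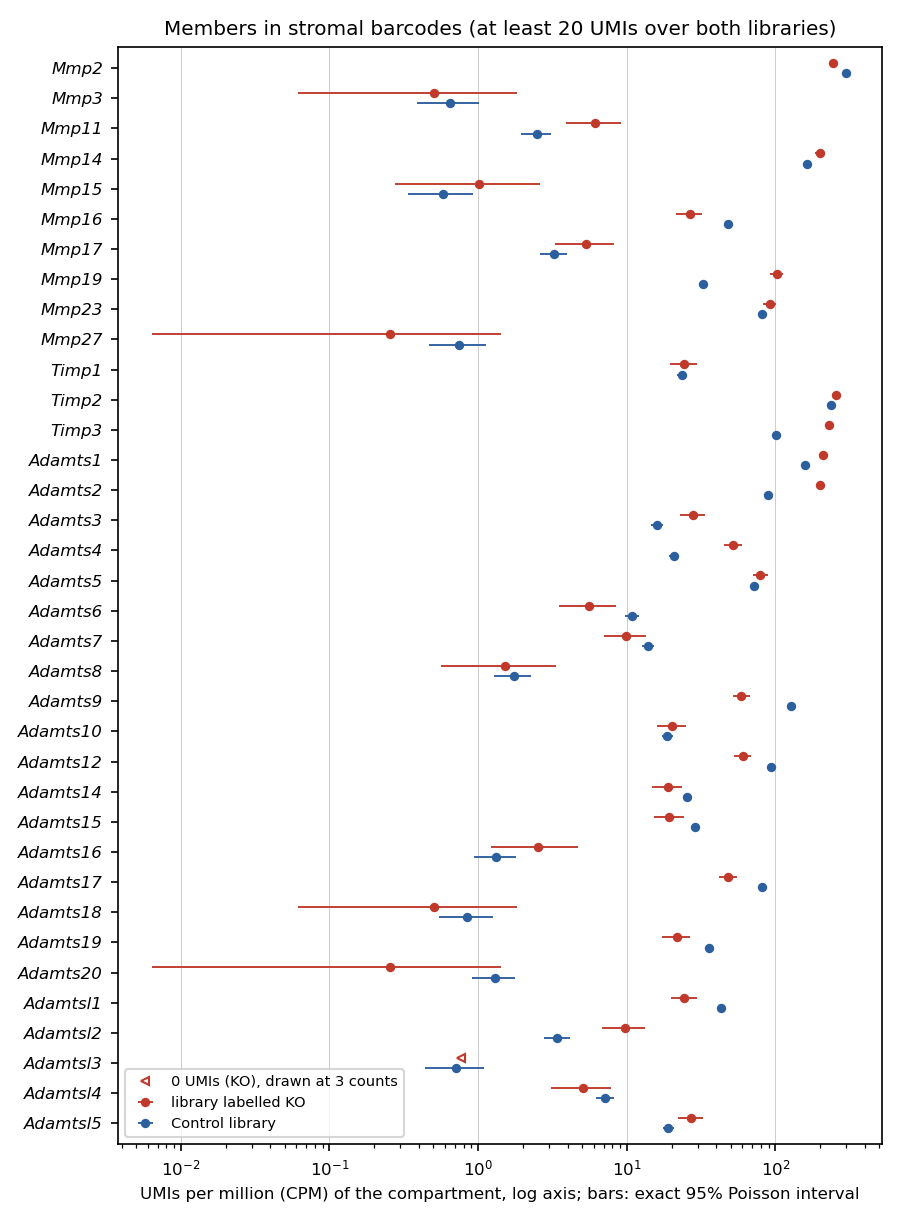
Levels of the 36 members with at least 20 UMIs in stromal barcodes, in CPM on a log axis, with red points for the library labelled KO, blue points for the Control library and bars for exact 95% Poisson intervals. Mmp19, Timp3, Adamts2 and Adamts4 lie to the right in the library labelled KO, Adamts9 lies to the left, and Adamtsl3, with 0 UMIs there, is drawn as an open triangle at 3 counts.

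Among the secreted matrix metalloproteases of the stroma, Mmp19, which degrades basement membrane proteins, was higher in the library labelled KO. Mmp19 (ENSMUSG00000025355, chromosome 10) was 102 CPM (92.4 to 113) in the library labelled KO and 32.5 CPM (30.5 to 34.7) in the Control library, a ratio of 3.14 (2.79 to 3.53). After each barcode was thinned to 2000 UMIs, 16.2% of 939 KO-labelled stromal barcodes carried an Mmp19 UMI (13.9 to 18.7, exact binomial), against 6.58% of 3190 Control barcodes (5.75 to 7.50). The difference therefore stood at equal depth per barcode as well as in the summed counts. Without thinning the shares were 27.6% in the library labelled KO and 23.2% in the Control library, at median depths of 3639.5 and 8892 UMIs. Thinned epithelial barcodes gave 0 of 1365 with an Mmp19 UMI in the library labelled KO and 0 of 709 in the Control library. The exact binomial intervals allow thinned shares of up to 0.270% and 0.519%. Unthinned, 0.424% of KO-labelled and 0.416% of Control epithelial barcodes carried one. Mmp11 (stromelysin-3), which is activated inside the cell by furin, was 6.10 CPM in KO-labelled stroma and 2.48 CPM in Control stroma, on 24 and 73 UMIs, a ratio of 2.46 (1.48 to 3.95).

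Mmp2 (gelatinase A), which cuts denatured collagen and type IV collagen, was 243 CPM (228 to 259) in KO-labelled stroma and 298 CPM (291 to 304) in Control stroma. Its ratio of 0.818 (0.764 to 0.874) lay within 2-fold. Mmp9, the other gelatinase, had 0 UMIs in the library labelled KO and 5 in the Control library, all in stroma. Mmp3 had 2 UMIs in KO-labelled stroma and 19 in Control stroma, the same total as in the whole library, and its ratio of 0.788 (0.0890 to 3.27) is not resolved at this depth. Mmp27 had 1 and 22 UMIs in the KO-labelled and Control stroma, a ratio of 0.340 (0.00825 to 2.11), so its lower call rests on counts whose interval includes 1.

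The membrane-type enzymes sit at the cell surface, and MMP14 there activates the MMP2 proenzyme. Mmp14 was 199 CPM (186 to 214) in stroma of the library labelled KO and 162 CPM (158 to 167) in Control stroma, a ratio of 1.23 (1.14 to 1.33). Mmp16 was 26.4 CPM in KO-labelled stroma and 48.1 CPM in Control stroma, a ratio of 0.549 (0.445 to 0.670). Mmp14 was thus somewhat higher and Mmp16 lower, neither by 2-fold in the summed counts. In barcodes thinned to 2000 UMIs the Mmp16 log2 ratio was -1.19, past 2-fold. Of these thinned stromal barcodes, 4.05% of the KO-labelled and 8.68% of the Control ones carried Mmp16. Mmp23, which is anchored by its amino-terminal end, was 91.2 CPM in KO-labelled stroma and 80.7 CPM in Control stroma, a ratio of 1.13 (1.01 to 1.26). Mmp17, held by a lipid anchor, was 5.34 CPM in KO-labelled stroma and 3.22 CPM in Control stroma, a ratio of 1.66 (0.980 to 2.68).

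Of the inhibitors, Timp3 alone passed 2-fold in stroma. Timp3 (ENSMUSG00000020044, chromosome 10) was 229 CPM (215 to 245) in the library labelled KO and 101 CPM (97.3 to 105) in the Control library, a ratio of 2.27 (2.11 to 2.45). Thinned to 2000 UMIs, 22.3% of KO-labelled stromal barcodes (19.6 to 25.1) and 11.6% of Control stromal barcodes (10.5 to 12.8) carried it, and 32.3% and 26.9% did without thinning. Timp2, which inhibits MMP2 and also helps MMP14 to activate it, was 256 CPM in KO-labelled stroma and 237 CPM in Control stroma, a ratio of 1.08 (1.01 to 1.15). Timp1 was 24.1 CPM in KO-labelled stroma and 23.5 CPM in Control stroma, a ratio of 1.03 (0.818 to 1.27). The intervals of these 2 genes kept them well inside 2-fold, while Timp4 had 0 stromal UMIs in the library labelled KO and 1 in the Control library.

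The ADAMTS proteases that cut versican and aggrecan did not move as a block in stroma. Adamts4 (aggrecanase-1) was 52.1 CPM (45.2 to 59.7) in the library labelled KO and 20.9 CPM (19.3 to 22.6) in the Control library, a ratio of 2.50 (2.12 to 2.93). Adamts1 was 209 CPM in KO-labelled stroma and 158 CPM in Control stroma, a ratio of 1.32 (1.22 to 1.42). Adamts9 (ENSMUSG00000030022, chromosome 6) went the other way, at 59.0 CPM (51.6 to 67.0) in the library labelled KO and 127 CPM (123 to 131) in the Control library, a ratio of 0.465 (0.405 to 0.531). At equal depth 9.05% of KO-labelled stromal barcodes (7.29 to 11.1) carried Adamts9 and 19.9% of Control barcodes (18.5 to 21.3), with unthinned shares of 15.9% and 52.1%. So Adamts4 was higher and Adamts9 lower in the same barcodes. Adamts5 (aggrecanase-2) had a ratio of 1.10 (0.973 to 1.24), Adamts15 of 0.671 (0.524 to 0.849) and Adamts8, on 6 KO and 51 Control UMIs, of 0.881 (0.309 to 2.05). Adamts20, which is needed for normal coat pigmentation in mice, had 1 UMI in KO-labelled and 38 in Control stroma, a ratio of 0.197 (0.00486 to 1.17).

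The procollagen N-proteinases trim the amino-terminal propeptides of fibrillar procollagens. Adamts2 (ENSMUSG00000036545, chromosome 11) was 199.97 CPM (186 to 214) in KO-labelled stroma and 88.8 CPM (85.5 to 92.3) in Control stroma, a ratio of 2.25 (2.08 to 2.44). The thinned share of barcodes was 31.6% (28.7 to 34.7) in the library labelled KO and 15.5% (14.3 to 16.8) in the Control library, against 46.7% and 45.4% unthinned. Adamts3 was 27.7 CPM in KO-labelled stroma and 16.0 CPM in Control stroma, a ratio of 1.73 (1.39 to 2.14). Adamts14 was 18.8 CPM in KO-labelled stroma and 25.6 CPM in Control stroma, a ratio of 0.735 (0.571 to 0.934). The 3 enzymes of this group therefore differed among themselves, and only Adamts2 was called.

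The remaining ADAMTS proteases with at least 20 stromal UMIs lay within 2-fold in either direction in the summed counts. Adamts12, which cuts cartilage oligomeric matrix protein, was 60.2 CPM in KO-labelled stroma and 93.7 CPM in Control stroma, a ratio of 0.643 (0.561 to 0.734). Adamts17, a protein of fibrillin microfibrils, was 48.0 CPM in KO-labelled stroma and 80.7 CPM in Control stroma, a ratio of 0.595 (0.510 to 0.690). Adamts6 had a ratio of 0.516 (0.319 to 0.796), Adamts19 of 0.604 (0.478 to 0.754) and Adamts7 of 0.714 (0.500 to 0.993). In thinned barcodes Adamts6 and Adamts19 were each past 2-fold lower, at a log2 ratio of -1.15. Adamts10, another fibrillin-binding member, stood at 1.07 (0.836 to 1.36). Adamts16, on 10 KO and 39 Control UMIs, had a ratio of 1.92 (0.855 to 3.92), and Adamts18, on 2 and 25 UMIs, of 0.599 (0.0688 to 2.40).

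Among the ADAMTS-like proteins of the stroma, Adamtsl2, which binds fibrillin and latent TGF-beta binding protein, was 9.66 CPM in the library labelled KO and 3.39 CPM in the Control library, a ratio of 2.85 (1.91 to 4.17). Adamtsl5 had a ratio of 1.42 (1.14 to 1.74) and Adamtsl4 of 0.713 (0.427 to 1.13). Adamtsl1 was 24.4 CPM in KO-labelled stroma and 42.9 CPM in Control stroma, a ratio of 0.568 (0.457 to 0.700). In thinned barcodes its log2 ratio was -1.12, past 2-fold. Adamtsl3 had 0 UMIs in KO-labelled and 21 in Control stroma, which the shallower library could not distinguish from an equal level.

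Summed over each family, stromal Mmp genes reached 677 CPM in the library labelled KO and 630 CPM in the Control library, a ratio of 1.07 (1.03 to 1.12). The Adamts sum was 835 CPM in KO-labelled stroma and 796 CPM in Control stroma, a ratio of 1.05 (1.01 to 1.09). The Timp sum was 509 CPM in KO-labelled stroma and 361 CPM in Control stroma, a ratio of 1.41 (1.34 to 1.48). Protease sums were thus nearly level while the inhibitor sum, which includes Timp3, was higher.

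Several values moved with the stromal differences. The 6 epithelial genes named above (Cdh1 to Lcn2) summed to 87.4 CPM in KO-labelled stroma and 13.1 CPM in Control stroma. Of these, 5 of 5 measured were called higher, where 5.47% of all features were. In KO-labelled epithelium Mmp19 was at 0.34% and Adamts2 at 0.55% of its stromal level. The 4 mural markers summed to 212 CPM in KO-labelled stroma and 367 CPM in Control stroma. When barcodes that also met the mural rule were left out (27 KO and 98 Control), the log2 ratio of Timp3 was 1.31 in place of 1.18. The 4 endothelial markers summed to 17.02 CPM in KO-labelled stroma and 51.1 CPM in Control stroma. In the endothelial barcodes described below they summed to 5890 CPM (KO) and 4968 CPM (Control). In stroma 3 of 4 were called lower, where 11.7% of all features were lower. Of 10 genes of the dissociation response, 9 had a ratio above 1 in stroma (median log2 ratio 0.61), and the part of these lists in the results was not tested.

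**Figure D2:**
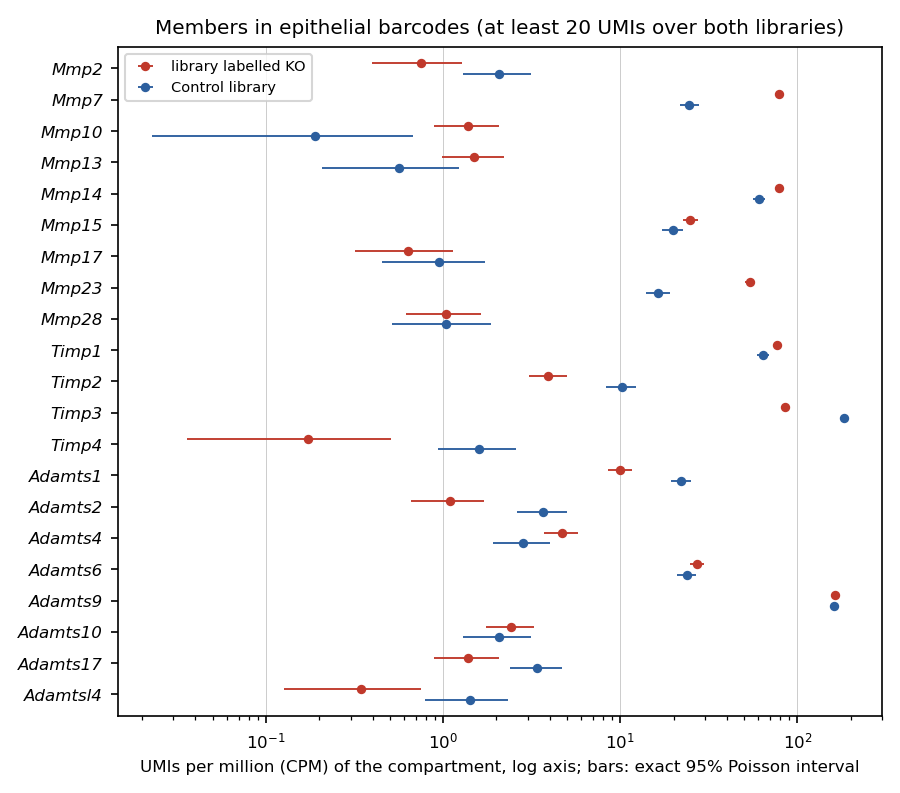
Levels of the 21 members with at least 20 UMIs in epithelial barcodes, in CPM on a log axis, with red points for the library labelled KO, blue points for the Control library and bars for exact 95% Poisson intervals. Mmp7, Mmp23, Mmp10 and Mmp13 lie to the right in the library labelled KO, Timp3, Adamts1 and Timp2 lie to the left, and both points of Adamts9 coincide.

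In epithelium the matrilysin gene Mmp7 (ENSMUSG00000018623, chromosome 9) was higher in the library labelled KO. MMP7 is a small secreted enzyme made mainly by epithelia, where it cuts matrix and cell surface proteins. Mmp7 was 78.6 CPM (74.5 to 82.9) in the library labelled KO and 24.5 CPM (21.6 to 27.6) in the Control library, a ratio of 3.21 (2.81 to 3.68). Thinned to 2000 UMIs, 13.0% of 1365 KO-labelled epithelial barcodes carried it (11.2 to 14.9), against 3.95% of 709 Control barcodes (2.64 to 5.66). Unthinned shares were 46.1% in the library labelled KO and 22.6% in the Control library, at median depths of 9523.5 and 11752 UMIs. Stromal barcodes thinned to 2000 UMIs gave 0 of 939 in the library labelled KO and 0 of 3190 in the Control library. The exact binomial intervals allow thinned shares of up to 0.392% and 0.116%. Unthinned, 0.191% of KO-labelled and 0.0311% of Control stromal barcodes carried it. At equal depth Mmp7 was thus seen in epithelial and not in stromal barcodes, and in a larger share of KO-labelled than of Control epithelial barcodes.

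Mmp23 was the other matrix metalloprotease with many epithelial UMIs that was called higher. It was 54.0 CPM (50.6 to 57.6) in the library labelled KO and 16.4 CPM (14.0 to 19.0) in the Control library, a ratio of 3.29 (2.80 to 3.90). Its thinned share was 8.42% (7.01 to 10.0) in KO-labelled epithelium and 2.12% (1.19 to 3.47) in Control epithelium, with 37.1% and 15.5% unthinned. The epithelial level was 59.2% of the stromal level in the library labelled KO and 20.3% in the Control library, while the stromal levels themselves were within 2-fold. The cluster genes Mmp10 and Mmp13 were scarce. Mmp10 had 24 UMIs in KO-labelled and 2 in Control epithelium, a ratio of 7.35 (1.82 to 64.2), and Mmp13 had 26 and 6, a ratio of 2.65 (1.07 to 7.89). Unthinned, Mmp10 was in 0.989% of KO-labelled and 0.277% of Control epithelial barcodes, and Mmp13 in 0.847% and 0.554%. Thinned, each was in 0.293% of KO-labelled barcodes (0.0799 to 0.749). Thinned Control barcodes gave 0% (0 to 0.519) for Mmp10 and 0.141% (0.00357 to 0.783) for Mmp13, and these intervals overlap.

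The membrane-type pair of the epithelium stayed within 2-fold. Mmp14 was 78.5 CPM in KO-labelled epithelium and 60.9 CPM in Control epithelium, a ratio of 1.29 (1.17 to 1.42). Mmp15, a related transmembrane enzyme, was 24.9 CPM in KO-labelled epithelium and 19.9 CPM in Control epithelium, a ratio of 1.25 (1.06 to 1.48). In stroma Mmp15 had 4 KO-labelled and 17 Control UMIs. Mmp2, called lower on 13 KO and 22 Control UMIs, was at 0.31% of its stromal level in KO-labelled epithelium and 0.70% in Control epithelium. Of the stromal genes that the rule did not use, Lum, Pdgfra and Hand2 were at 0.38% to 0.50% of their stromal level in KO-labelled epithelium. Col6a3 was at 1.86% there. In Control epithelium all of these genes were at 0.59% to 1.07%. The part of stromal RNA in epithelial Mmp2 was not tested.

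The inhibitors ran lower in epithelium apart from Timp1. Timp3 was 85.6 CPM (81.3 to 90.1) in the library labelled KO and 183 CPM (175 to 191) in the Control library, a ratio of 0.468 (0.437 to 0.501). The thinned share was 12.0% (10.3 to 13.9) in KO-labelled epithelium and 18.3% (15.6 to 21.4) in Control epithelium, with 37.2% and 41.6% unthinned. Timp3 was thus lower in KO-labelled epithelium by level and by share. Timp2 was 3.92 CPM in KO-labelled epithelium and 10.2 CPM in Control epithelium, a ratio of 0.386 (0.280 to 0.527). These are 1.53% and 4.29% of the stromal level. The first lies above Lum, Pdgfra and Hand2 (0.38% to 0.50%) and under Col6a3 (1.86%) in that epithelium. The second lies above all of these genes in Control epithelium (0.59% to 1.07%). The part of stromal RNA in epithelial Timp2 was not tested. Timp1 was 76.5 CPM in KO-labelled epithelium and 64.2 CPM in Control epithelium, a ratio of 1.19 (1.08 to 1.31). Timp4 had 3 and 17 UMIs in KO-labelled and Control epithelium, a ratio of 0.108 (0.0203 to 0.374), but it lies within Syn2, which had 416 and 2131 UMIs there, and without a stated strand its counts are uncertain.

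Of the ADAMTS proteases in epithelium, Adamts9 was the same in both libraries to within its counting error. It was 164 CPM (158 to 170) in the library labelled KO and 161 CPM (154 to 169) in the Control library, a ratio of 1.02 (0.956 to 1.08). Adamts6 was 27.1 CPM in KO-labelled epithelium and 23.7 CPM in Control epithelium, a ratio of 1.14 (0.978 to 1.34). Adamts1 was 9.98 CPM (8.55 to 11.6) in KO-labelled epithelium and 21.9 CPM (19.2 to 24.9) in Control epithelium, a ratio of 0.455 (0.371 to 0.556). Adamts1 was thus lower in KO-labelled epithelium, where its level was 4.78% of the stromal level, against 13.9% in the Control library. Adamts4 was 4.67 CPM in KO-labelled epithelium and 2.83 CPM in Control epithelium, a ratio of 1.65 (1.08 to 2.61). Adamts10 stood at 1.17 (0.682 to 2.06). Adamts2 (19 KO and 39 Control UMIs) and Adamts17 (24 and 36) were called lower at 0.298 (0.163 to 0.529) and 0.408 (0.233 to 0.704). The Adamts2 value was -0.52 on the log2 scale in place of -1.74 when doublet candidates were kept, and Adamts17 turned to 0.38 from -1.29 in thinned barcodes, so neither call is firm. In the library labelled KO epithelial Adamts2 was at 0.55% of its stromal level, between Lum (0.50%) and Col6a3 (1.86%). In the Control library it was at 4.13%, where Lum, Pdgfra, Hand2 and Col6a3 were at 0.59% to 1.07%. Adamtsl4 had 6 and 15 UMIs in KO-labelled and Control epithelium, a ratio of 0.245 (0.0779 to 0.668).

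The epithelial Mmp sum was 242 CPM in the library labelled KO and 129 CPM in the Control library, a ratio of 1.87 (1.76 to 1.99). The Timp sum was 166 CPM in KO-labelled epithelium and 259 CPM in Control epithelium, a ratio of 0.642 (0.609 to 0.677). As sums, the Mmp family was thus higher and the Timp family lower, although Timp1 by itself had a ratio of 1.19 and 4 of the 9 measured Mmp genes were called higher. The Adamts sum was 212 CPM in KO-labelled epithelium and 223 CPM in Control epithelium, a ratio of 0.951 (0.903 to 1.00).

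**Figure D3:**
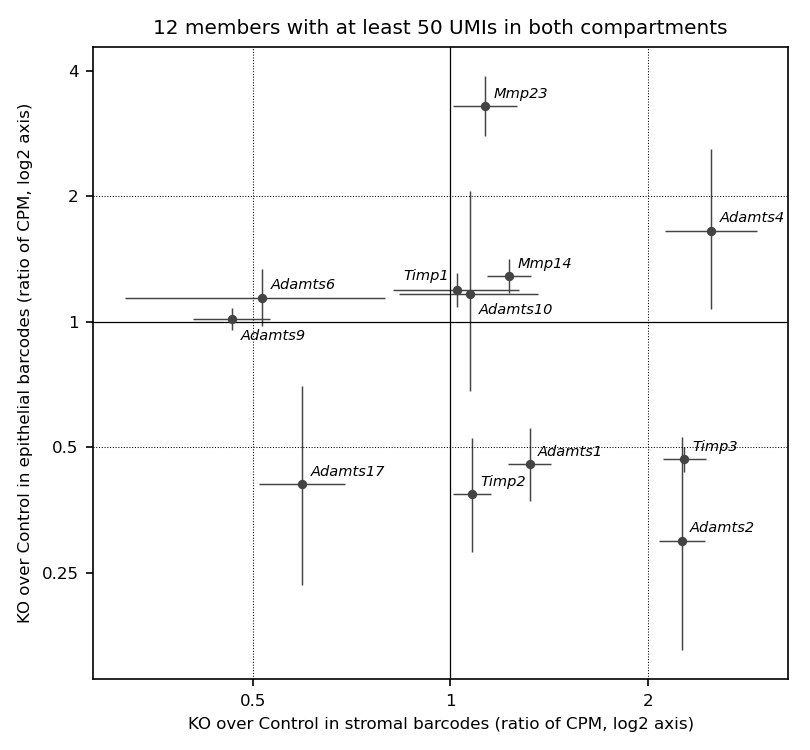
Ratio of CPM, library labelled KO over Control, in stromal barcodes (x axis) against epithelial barcodes (y axis), both on log2 axes, for the 12 members with at least 50 UMIs in both compartments, with exact 95% intervals as bars. Timp3 and Adamts2 lie to the lower right, Adamts9 lies to the left at an epithelial ratio of 1.02, and Mmp23 lies at the top near a stromal ratio of 1.13.

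Set side by side, the compartments differed in which members were called. Timp3 was called higher in stroma (ratio 2.27) and lower in epithelium (ratio 0.468), and Adamts2 likewise (2.25 and 0.298), although its epithelial call rests on 19 KO and 39 Control UMIs and was lost when doublet candidates were kept. Adamts9 was called lower in stroma (0.465) and stood at 1.02 in epithelium, and Mmp23 was called higher in epithelium (3.29) and stood at 1.13 in stroma. In each of these pairs the counting intervals of the 2 compartments did not overlap. The compartments come from the same 2 libraries, so this is a description of those libraries and not a test of the difference. In the library labelled KO the epithelial Timp3 level was 37.3% of the stromal one, while in the Control library it was 1.81-fold higher in epithelium than in stroma (1.71 to 1.92). Timp1 was higher in epithelium than in stroma in both libraries, 3.17-fold (2.57 to 3.94) in the library labelled KO and 2.73-fold (2.45 to 3.04) in the Control library.

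**Figure D4:**
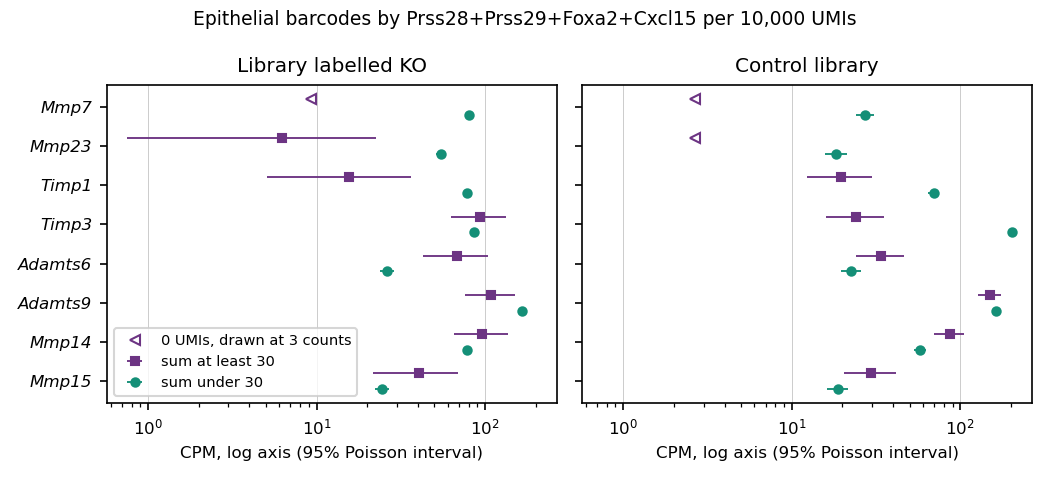
Levels of 8 members in epithelial barcodes, in CPM on a log axis with 95% Poisson intervals, for the library labelled KO (left) and the Control library (right), split by the summed level of Prss28, Prss29, Foxa2 and Cxcl15 at 30 per 10000 UMIs. Open triangles mark 0 UMIs, drawn at 3 counts, for Mmp7 in the high barcodes of both libraries and for Mmp23 in those of the Control library, and Timp1 was lower in the high barcodes of both.

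Epithelial barcodes were also divided by a summed level of Prss28, Prss29, Foxa2 and Cxcl15, genes known from uterine glands, at 30 per 10000 UMIs, a limit set after the values had been seen. High barcodes numbered 43 of 1416 (3.04%) in the library labelled KO and 88 of 722 (12.2%) in the Control library. A sum within 3 times of that limit, above or under it, was found in 51 KO-labelled and 35 Control barcodes. Mmp7 had 0 UMIs in the high barcodes of either library, and was 80.1 CPM in the other KO-labelled and 27.4 CPM in the other Control barcodes. Against 3 counts in the high barcodes, the other barcodes were at least 8.58-fold higher in the library labelled KO and at least 10.2-fold higher in the Control library, and the exact conditional limits nearest 1 were 6.97 and 8.25. Mmp23 had 2 UMIs in the KO-labelled and 0 in the Control high barcodes, and 54.9 CPM and 18.3 CPM in the others. Its ratio of high over other barcodes was 0.113 (0.0137 to 0.411) in the library labelled KO and 0 (0 to 0.182) in the Control library. The high barcodes held 321366 KO-labelled and 1119900 Control UMIs, against 17017005 and 9499397 in the others. Per total UMIs, both proteases were thus lower in the barcodes high for the gland genes.

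Timp1 was lower in the high barcodes of both libraries, at 15.6 CPM against 77.6 CPM in the others of the library labelled KO and at 19.6 CPM against 69.5 CPM in the others of the Control library. Timp3 was 93.4 CPM in the high and 85.4 CPM in the other KO-labelled barcodes, and 24.1 CPM in the high and 201 CPM in the other Control barcodes, with a ratio of high over other barcodes of 1.09 (0.734 to 1.57) in the library labelled KO and 0.120 (0.0786 to 0.175) in the Control library. Adamts6 was 68.5 CPM in the high and 26.3 CPM in the other KO-labelled barcodes, and 33.9 CPM in the high and 22.5 CPM in the other Control barcodes. Since the libraries differed in their share of high barcodes, ratios were also taken without them. Mmp7 was then 2.93-fold higher (2.56 to 3.35) and Mmp23 2.996-fold higher (2.55 to 3.54), while Timp3 stood at 0.424 (0.396 to 0.454). Mmp10 stood at 6.70 (1.66 to 58.5) and Mmp13 at 2.42 (0.974 to 7.19), an interval that includes 1.

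**Figure D5:**
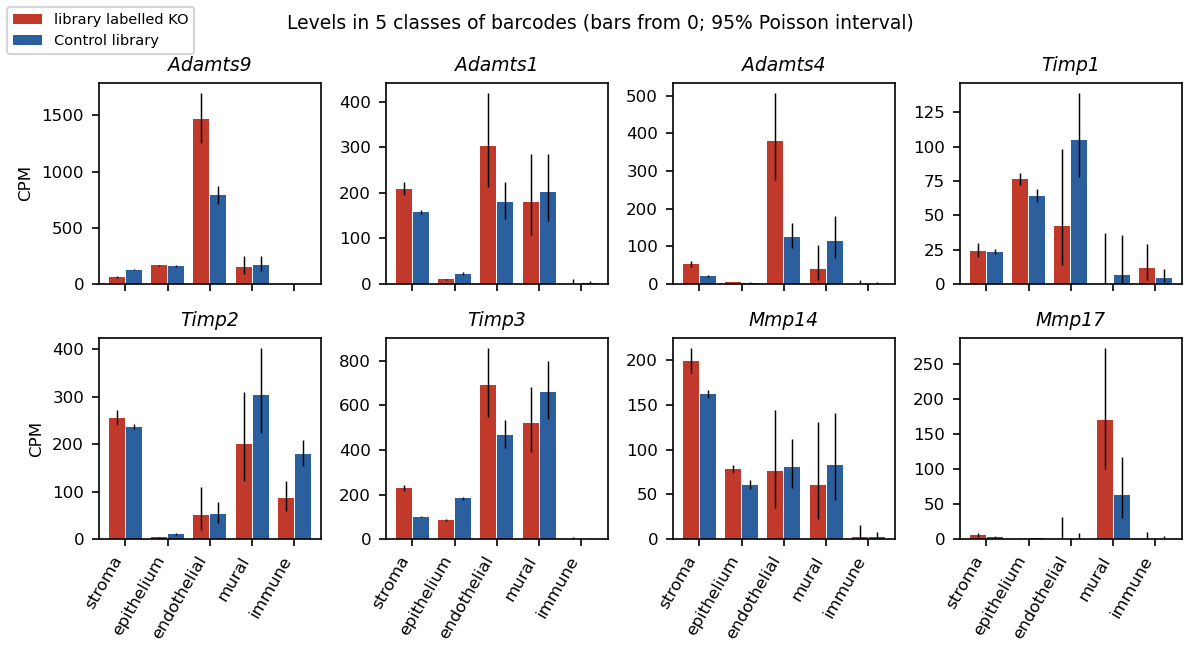
Levels of 8 members in stromal, epithelial, endothelial, mural and immune barcodes, in CPM from 0 with exact 95% Poisson intervals, red for the library labelled KO and blue for the Control library. Adamts9 and Timp3 reach 1468 CPM and 692 CPM in KO-labelled endothelial barcodes, and Mmp17 stands highest in mural barcodes.

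Barcodes outside both compartments were sorted by 4 markers each into endothelial (40 KO, 55 Control), mural (54 KO, 35 Control) and immune (182 KO, 155 Control) sets. Adamts9, which is known to restrain angiogenesis in mice, was 1468 CPM (1258 to 1703) in KO-labelled and 787 CPM (708 to 873) in Control endothelial barcodes, a ratio of 1.87 (1.55 to 2.24). Its direction there was opposite to that in stroma. Adamts4 was 380 CPM (277 to 508) in KO-labelled and 125 CPM (94.6 to 162) in Control endothelial barcodes, on 45 and 57 UMIs. Adamts1 was 304 CPM (213 to 421) in KO-labelled and 180 CPM (143 to 223) in Control endothelial barcodes. Adamtsl1 was 50.6 CPM (18.6 to 110) in KO-labelled and 160 CPM (125 to 201) in Control endothelial barcodes, the reverse order. Of the dissociation response genes, 8 of 10 had a ratio above 1 in endothelial barcodes. No share over all features was taken in these barcodes, and the part of these genes was not tested.

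Mural barcodes cover pericytes and smooth muscle. Mmp17 was 171 CPM (99.4 to 273) in KO-labelled and 63.4 CPM (30.4 to 117) in Control mural barcodes, on 17 and 10 UMIs. Timp3 was 522 CPM (390 to 684) in KO-labelled and 659 CPM (538 to 798) in Control mural barcodes, with overlapping intervals. Within stroma, Control barcodes that also met the mural rule had 569 CPM of Timp3, against 91.1 CPM in the other stromal barcodes, and 21.4 CPM of Mmp17 against 2.84 CPM. Timp3 and Mmp17 were thus both higher where mural markers were present.

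Immune barcodes gave few member UMIs. Mmp12 (macrophage elastase) had 9 UMIs in the KO-labelled and 3 in the Control immune barcodes, and Mmp13 had 1 and 18. These UMIs lay in few barcodes, 1.65% of the KO-labelled and 1.29% of the Control immune barcodes for Mmp12. For Mmp13 the shares were 0.549% and 2.58%. Timp2 was 86.9 CPM (59.0 to 123) in KO-labelled and 180 CPM (154 to 210) in Control immune barcodes. Over the same barcodes, 4 macrophage genes summed to 1968 CPM in the library labelled KO and 3534 CPM in the Control library, and the 3 neutrophil genes were at 0 in the library labelled KO and at 63.7 CPM in the Control library. Their part in these values was not tested. Mmp8, the neutrophil collagenase, had 0 UMIs in the library labelled KO and 6 in the Control library as a whole, and Mmp1b, a collagenase gene of rodents, had 0 in both. Other members with under 20 UMIs in all kept barcodes were Mmp20 (3 KO and 0 Control), Mmp21 (0 and 4), Mmp24 (0 and 12), Mmp25 (12 and 7) and Adamts13 (1 and 2), the last the protease of von Willebrand factor.

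Regulators of these proteases were followed through a list of 24 genes of activators, receptors and inhibitors. In stroma 21 were measured, of which 4 were called higher in the library labelled KO and 1 lower, against 5.47% and 11.7% of all features. A2m, a protease trap of body fluids, was 47.3 CPM in KO-labelled stroma and 5.94 CPM in Control stroma, a ratio of 7.96 (6.44 to 9.84). Thbs1 was 127 CPM in KO-labelled stroma and 43.4 CPM in Control stroma, a ratio of 2.92 (2.63 to 3.24). Plaur, the urokinase receptor, and Thbs2 had ratios of 2.20 (1.60 to 2.99) and 2.12 (1.16 to 3.69), and Spock2, a testican, was the lower one at 0.315 (0.215 to 0.446). Reck, a membrane-anchored inhibitor of matrix metalloproteases, stood at 0.761 (0.624 to 0.920), and Pcsk5, a proprotein convertase, at 0.580 (0.551 to 0.610).

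In epithelium 18 regulators were measured, 3 called higher and 5 lower, against 5.11% and 15.0% of all features. The convertase genes Furin and Pcsk6, whose enzymes activate several of these proteases, had ratios of 2.01 (1.83 to 2.22) and 2.51 (2.39 to 2.64). Plau (urokinase) was 24.2 CPM in KO-labelled epithelium and 7.82 CPM in Control epithelium, a ratio of 3.10 (2.44 to 3.97). Tll1, a relative of the procollagen C-proteinase, was 18.3 CPM in KO-labelled epithelium and 101 CPM in Control epithelium, a ratio of 0.182 (0.160 to 0.206). The other lower regulators were Pcsk5, Serpine2, Plat and Spock1. The median log2 ratio of the regulators was 0.31 in stroma, where it was -0.05 over all features, and -0.17 in epithelium, where it was -0.18 over all features.

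Matrix substrates were followed through 20 genes. In stroma 18 were measured, 4 called higher (Tnc, Eln, Col4a1 and Col4a2) and 1 lower (Vcan), where 5.47% and 11.7% of all features were, with a median log2 ratio of 0.11. Vcan, the versican substrate of Adamts1, Adamts4 and Adamts9, was 83.3 CPM in KO-labelled stroma and 196 CPM in Control stroma, a ratio of 0.426 (0.380 to 0.476). Eln (elastin) was 247 CPM in KO-labelled stroma and 86.3 CPM in Control stroma, a ratio of 2.87 (2.66 to 3.09). Col1a1, whose product Adamts2 trims, was 927 CPM in KO-labelled stroma and 775 CPM in Control stroma, a ratio of 1.20 (1.16 to 1.24). In epithelium 14 were measured, 1 called higher and 8 lower (5.11% and 15.0% over all features), with a median log2 ratio of -1.30 against -0.18 over all features. All 20 summed to 85.9 CPM in KO-labelled and 113 CPM in Control epithelium, against 9300 CPM in KO-labelled and 8876 CPM in Control stroma, and the part of stromal RNA in the epithelial values was not tested. Ltbp1, which holds latent TGF-beta in the matrix, was the higher one, at 34.7 CPM in KO-labelled epithelium and 6.50 CPM in Control epithelium, a ratio of 5.34 (4.16 to 6.96).

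Some members share their place in the genome with another gene, and since no strand is stated for the counting their values are less certain. Mmp23 overlaps Mib2, Mmp19 overlaps Tmem198b, Timp3 overlaps Syn3 and Adamts9 overlaps the noncoding gene 9530026P05Rik. In stroma that gene had 409 KO-labelled and 1149 Control UMIs, more than Adamts9 (232) in the library labelled KO and, against the total UMIs, higher there, the opposite direction to Adamts9. The other partners' counts were 25 KO-labelled and 186 Control UMIs for Mib2, 33 and 353 for Tmem198b, and 66 and 175 for Syn3 in stroma. In epithelium Mib2 had 79 KO-labelled and 29 Control UMIs, and Syn3 had 171 and 160. Against the total UMIs, Mib2 was higher and Syn3 lower in KO-labelled epithelium, the directions of Mmp23 and Timp3 there. By the same measure Syn3 was higher in KO-labelled stroma, the direction of Timp3 there. In that stroma Tmem198b was lower, opposite to Mmp19, and Mib2 was nearly level. The part of these overlaps in the member values was not tested.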

How the data were processed

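Per the file headers, the deposited count matrices were written with Cell Ranger 7.0.1, and the authors deposited whole-number UMI counts per gene and barcode. Per the submitters' processing notes, the build was mm39 and Seurat was used, with no version. Barcodes were kept from 500 detected genes upward and up to 15% mitochondrial UMIs. Scrublet scores (scanpy 1.11.5, Python 3.11.15) were used to remove doublet candidates at a rate of 0.8% for each 1000 barcodes (74 KO, 165 Control). UMIs were summed per compartment and library and scaled to CPM. A member was called at a 2-fold difference with at least 20 UMIs over both libraries, and a library at 0 was set to 3 counts. All members were accounted for, and members with at least 50 UMIs in a compartment got full values. Thinning drew 2000 UMIs per barcode and left out shallower barcodes, 109 KO and 26 Control in stroma and 51 KO and 13 Control in epithelium. Promoters came from a RefSeq table of GRCm38.p6, another build than that of the counts, and were matched by symbol. Gene overlaps came from RefSeq annotation of that build. One such overlap is not reported here. Scripts were tested on simulated data. The members, lists and limits were chosen with earlier results of these data known. Alternatives covered filters, doublets, marker limits, scaling, thinning and UMI minimums.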

Additional observations from a re-analysis of the deposited data

Results flagged for a closer look

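Members whose direction between the libraries was opposite in stroma and epithelium, with counting intervals on either side of 1, were singled out. The value given is the log2 ratio (library labelled KO over Control) in stroma minus that in epithelium, and the difference itself was not tested, since each group is 1 library. Adamts2 had a difference of 2.92, Timp3 of 2.28, Adamts1 of 1.54 and Timp2 of 1.49. The stromal log2 ratio of Timp2 was 0.11 and was -0.02 in thinned barcodes, so its direction in stroma is not settled. The epithelial Adamts2 value rests on 19 KO and 39 Control UMIs.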

How the results depend on the processing

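The 6 members called higher in stroma were called under every alternative run, and the count ranged up to 8. The 3 lower calls in stroma became 1 with a minimum of 50 UMIs, 5 with the mean over barcodes of CPM, and 5 in barcodes thinned to 2000 UMIs. With the mean they were Adamts6, Adamts9, Adamts20, Mmp16 and Mmp27. In thinned barcodes they were Adamts6, Adamts9, Adamts19, Adamtsl1 and Mmp16. The 4 higher calls in epithelium became 2 with a minimum of 50 UMIs. The 8 lower calls in epithelium became 5 with a minimum of 50 UMIs, 18 with a minimum of 1 UMI, and 2 in thinned barcodes. These minimums change how many members are measured, and the cause of the other shifts was not tested. Adamts17 in epithelium had a log2 ratio of 0.38 in thinned barcodes, against -1.29 in all UMIs. Over the alternatives, 126 values were computed for the 14 called ratios with full values (Timp3 and Adamts2 counted in both compartments), and 5 fell within 2-fold: that of Adamts17, Timp3 in epithelium under median of ratios scaling (-0.96), Timp2 in epithelium in thinned barcodes (-0.83), and Adamts2 in epithelium with doublet candidates kept (-0.52) or with all deposited barcodes (-0.52). That scaling takes out the epithelial median log2 ratio over features with at least 100 UMIs, which was -0.14. Without the barcodes high for gland genes, an alternative chosen after the data were seen, Timp3 in epithelium was -1.24. Over 43 named log2 ratios, 7 changed sign under some alternative, all but 1 of them within 2-fold in either form. No paired analysis was possible because each group is 1 library. Depth limits the scarce members most: Mmp27, Adamts20 and Mmp3 have too few UMIs in the library labelled KO for a direction.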
